A study of Arabidopsis thaliana with 12 samples.

Results

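The transcripts described here are 65 named nuclear genes of Arabidopsis thaliana whose signal was lower in the psaf line than in wild type plants. The psaf line is an antisense line in the Columbia 0 ecotype that lacks PSI-F, and it was set against wild type Columbia 0 plants (WT), with 6 one-channel arrays of total RNA from each, numbered 1 to 6. The sources used here do not give the promoter that drives the antisense construct, the tissue, the growth conditions, the plant age or the number of plants behind an array. The labels name a single antisense line. A gene was a candidate if a probe was annotated to it alone (the brightest such probe was taken), if all 12 values were above 0 and if their mean was below 2.0. This left 604 of the 691 genes that have a probe of their own among 3439 probes. Of the remaining genes, 44 had a 0 on at least 1 array and 43 had a mean of 2.0 or more. Each array was divided by its median over the 3241 probes above 0 on all arrays, and genes were kept whose mean log2 intensity in psaf was at least 0.4 below that in WT with every psaf array under every WT array. That gave 72 genes, from which 7 were set aside by name. The psaf against WT values of the 65 members therefore chose them, and those values are given as a description, with no test.

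PSI-F, the product of PSAF, sits on the lumenal side of photosystem I and helps plastocyanin, the soluble copper protein that carries electrons from the cytochrome b6f complex, to dock and deliver them. Plants short of this subunit pass electrons to photosystem I less well and absorb more light than they can use. Changes in the redox state of the chloroplast are known to alter the abundance of many nuclear transcripts through plastid to nucleus signalling. PSAF itself was on 0 of the probes annotated to 1 gene, so the target of the antisense construct gave no check of the genotype labels. Because whole-plant or whole-organ RNA may hold several cell types, fewer cells of a type and less RNA per cell cannot be told apart.

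The 12 arrays had summed intensities of 3563 to 3745, and 4.45% to 5.18% of their probes were listed at 0. In psaf as in WT, the arrays came in close pairs by number (1 with 2, 3 with 4, 5 with 6). Arrays of a pair differed by a robust SD of 0.118 to 0.156 log2 over probes, other psaf arrays by 0.217 to 0.285, other WT arrays by 0.252 to 0.430, and arrays of different genotypes by 0.449 to 0.612. Means ± SD below are therefore over 3 pair means per genotype, on the deposited intensity scale. Each log2 difference ± SE is psaf minus WT on the median-divided scale, with the SE taken over the pair means. Array medians were 0.442 to 0.486 in psaf and 0.573 to 0.605 in WT. Division by them raised every log2 difference by the same amount above that on the deposited scale. Whether arrays or pairs stand for separate plants is not in the labels, so the spread may be technical, and the small number of arrays limits precision. In limma over the 12 arrays, on intensities divided by the array median, 1658 of 3266 probes, or 50.8%, passed an adjusted p of 0.05, 943 higher and 715 lower in psaf. With each close pair averaged, 770 passed, or 23.6%, with 443 higher and 327 lower.

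Among the 604 candidate genes, 11.9% met both cuts on the lower side, and 74 genes, or 12.3%, met them with the direction turned round. Over all 3241 probes above 0 on every array, 10.9% met the cuts on the lower side and 17.1% on the higher side. The share of named genes that met the cuts on the lower side was thus close to that of all probes. The members' median log2 difference, psaf minus WT, was -0.64, which is 0.641-fold, beside -0.01 over the candidate genes and 0.07 over all 3241 probes. Single members lay between -1.11 and -0.41, with 5 at -1 or below, 34 between -1 and -0.6, and 26 above -0.6. The heat map of members by array shows the step between genotypes in every row and the unequal depth of it down the list.

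**Figure D1:**
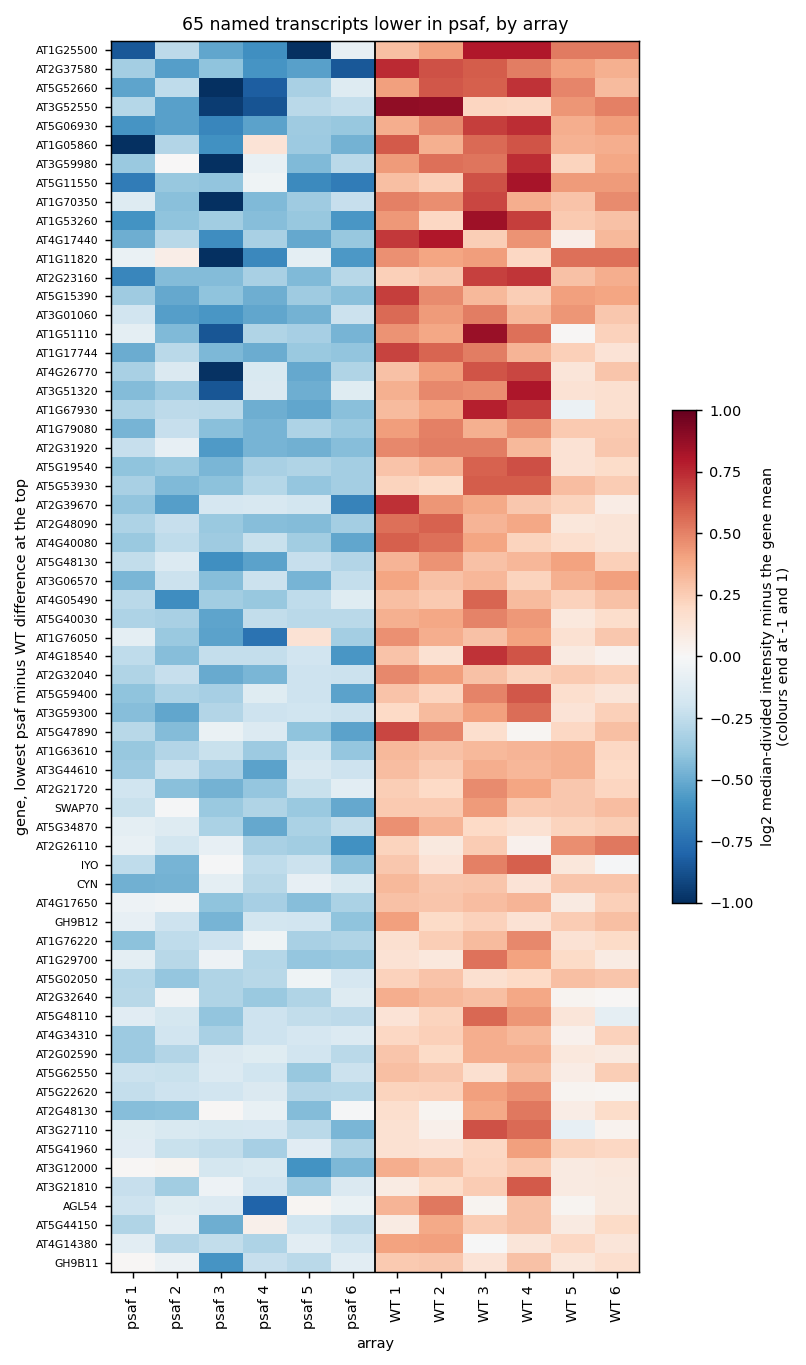
Heat map of the 65 members (rows, lowest psaf minus WT difference at the top) on the 6 psaf and then the 6 WT arrays (columns). Colour is the log2 median-divided intensity minus the mean of that gene over 12 arrays, from blue (below) to red (above), with colours ending at -1 and 1. Psaf columns are mostly blue and WT columns mostly red, as the choice of members requires, and close pairs of arrays often share a shade.

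Only 6 of the 65 members carry a gene symbol in the annotation used here, and the other 59 have a locus identifier alone. Of the 80 candidate genes with a symbol, 6 are members and 7 more met the cuts but were set aside by name, while 59 of the 524 with an identifier alone are members. No function is stated below for a gene that the annotation leaves unnamed. The 6 named members are CYN, GH9B11, GH9B12, IYO, SWAP70 and AGL54. They belong to cyanate breakdown, cell wall hydrolysis, transcription elongation and cell differentiation, small GTPase signalling and the MADS-box family.

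CYN (AT3G23490) encodes cyanase, which turns cyanate and bicarbonate into ammonia and carbon dioxide and so detoxifies cyanate. Its intensities were 1.07 to 1.31 on psaf arrays, with a median of 1.20, against 2.05 to 2.25 on WT arrays, with a median of 2.21. Cyanase had the brightest probe of all 65 members. On the median-divided scale its lowest WT array lay 0.22 log2 above its highest psaf array, beside a median gap of 0.24 over the members. The pair means were 1.19 ± 0.10 in psaf and 2.18 ± 0.0607 in WT (SD, n = 3 pair means each). The log2 difference of CYN was -0.52 ± 0.11 on the median-divided scale and -0.88 on the deposited scale. Psaf arrays 1 and 2 were the lowest for CYN, at 1.07 each, while the other 4 psaf arrays read 1.17 to 1.31.

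GH9B11 (AT2G44560) and GH9B12 (AT2G44570) are members of the GH9 family of glycosyl hydrolases, endoglucanases that cut beta-linked glucan chains when the cell wall is built and loosened. The 2 genes are neighbours on chromosome 2, next to each other in the order of protein-coding genes, and their probe numbers were 12 apart. GH9B12 read 0.201 to 0.280 on psaf arrays, with a median of 0.241, against 0.402 to 0.463 on WT arrays, with a median of 0.431. GH9B11 read 0.318 to 0.515 on psaf arrays, with a median of 0.422, against 0.681 to 0.777 on WT arrays, with a median of 0.716. Both genes were tightly grouped on the WT arrays and more scattered on the psaf arrays. The log2 difference was -0.51 ± 0.07 for GH9B12 and -0.41 ± 0.12 for GH9B11, the member closest to the cut of -0.4. As neighbouring genes of one family may share sequence, signal shared between their probes was not tested.

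Of the 4 GH9 genes among the candidates, 2 are members and 2 are not, beside 10.8% members among all candidates. A search of symbols and synonyms for words of functional classes placed 37 candidates and 2 members, both GH9 genes in the cell wall and glycosylation class of 6. The other 2 genes of that class besides the GH9 family, CSLA01 and UGT74D1, had overlapping groups. Their log2 differences were 0.19 ± 0.15 and 0.26 ± 0.41, but -0.17 and -0.10 on the deposited scale, so neither has a settled direction. The search left 63 members in no class, so the counts describe few genes. GH9B8 (AT2G32990) read 0.265 to 0.407 on psaf arrays, with a median of 0.316, against 0.248 to 0.357 on WT arrays, with a median of 0.275, so its groups overlapped and its log2 difference was 0.54 ± 0.19. GH9B16 (AT4G38990) read 0.315 to 0.448 on psaf arrays, with a median of 0.398, against 0.272 to 0.588 on WT arrays, with a median of 0.462, also overlapping, with a log2 difference of 0.19 and an SE of 0.30. On the deposited scale, without division by the array median, the GH9B16 difference was -0.17 and that of GH9B8 was 0.18, so GH9B16 has no settled direction. The WT arrays of GH9B16 fell apart by close pair, with arrays 1 and 2 at 0.272 and 0.311 and arrays 5 and 6 at 0.577 and 0.588.

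**Figure D2:**
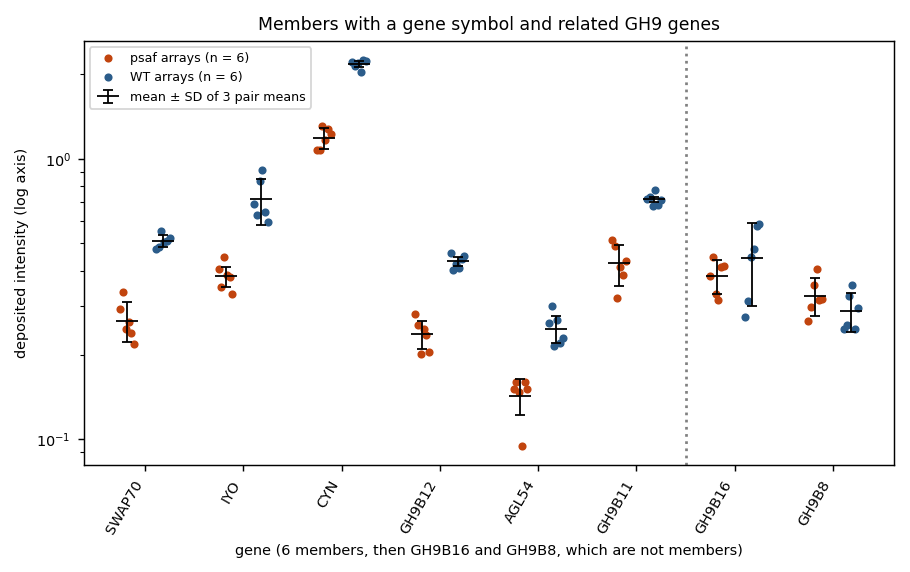
Deposited intensity (log axis) of the 6 members with a gene symbol, and right of the dotted line GH9B16 and GH9B8, on each psaf array (left, n = 6) and each WT array (right, n = 6). Black bars are the mean ± SD of 3 pair means. All 6 members show separate groups by choice, from -0.59 log2 in SWAP70 to -0.41 in GH9B11, and the groups of GH9B16 and GH9B8 overlap.

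IYO (AT4G38440), also called MINIYO, is a positive regulator of transcription elongation whose move into the nucleus starts cell differentiation in Arabidopsis meristems. IYO intensities were 0.330 to 0.448 on psaf arrays, with a median of 0.382, against 0.595 to 0.910 on WT arrays, with a median of 0.668. The WT values spread widely because WT arrays 3 and 4 read 0.832 and 0.910, while the other 4 WT arrays read 0.595 to 0.688. Its pair means were 0.382 ± 0.0311 in psaf and 0.717 ± 0.134 in WT. Its log2 difference was -0.54 ± 0.16 on the median-divided scale and -0.90 on the deposited scale. On the median-divided scale its highest psaf array and lowest WT array were only 0.0039 log2 apart, the second narrowest gap of the 65 members.

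SWAP70 (AT2G30880) is the plant counterpart of a protein that in mammals and rice acts on Rac-type small GTPases. It read 0.218 to 0.336 on psaf arrays, with a median of 0.254, against 0.479 to 0.554 on WT arrays, with a median of 0.508. The groups were 0.27 log2 apart on the median-divided scale, and the WT arrays were the more uniform. SWAP70 had a difference of -0.59 ± 0.10 log2.

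AGL54 (AT5G27090) belongs to the MADS-box transcription factors, a family best known for floral organ identity and for gametophyte and seed development. Its probe was dim, at 0.0949 to 0.160 on psaf arrays, with a median of 0.151, against 0.215 to 0.298 on WT arrays, with a median of 0.245. The lowest psaf value, on array 4, lay apart from the other 5 psaf values of 0.148 to 0.160. The log2 difference of AGL54 was -0.44 ± 0.17, and under cyclic loess its groups overlapped.

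The 12 members with the lowest difference all have a locus identifier alone. On the median-divided scale the lowest was AT1G25500, with 0.0719 to 0.137 on psaf arrays, with a median of 0.101, against 0.230 to 0.343 on WT arrays, with a median of 0.282. This is a dim probe, and its psaf values were uneven within close pairs, so that the SD over pair means understates their spread. Its log2 difference was -1.11 ± 0.13, but -0.66 with the 5th percentile of the values added before log2, and also -0.66 with the differences of neighbouring probe numbers subtracted (both described further on). Under both alternatives AT2G37580 was the lowest member instead, at -0.94 and -1.25. Under quantile normalisation and cyclic loess the lowest was AT5G06930, at -1.17 and -1.15. AT2G37580 read 0.340 to 0.529 on psaf arrays, with a median of 0.438, against 1.06 to 1.32 on WT arrays, with a median of 1.21. Its psaf arrays all lay below 0.53 and its WT arrays all above 1.05, the second widest gap of the members at 0.69 log2. The pair means of AT2G37580 were 0.438 ± 0.0576 in psaf and 1.19 ± 0.0994 in WT, and its log2 difference was -1.09 ± 0.12.

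AT5G52660 read 0.0621 to 0.118 on psaf arrays, with a median of 0.10, against 0.217 to 0.290 on WT arrays, with a median of 0.252. AT3G52550 read 0.270 to 0.456 on psaf arrays, with a median of 0.400, against 0.786 to 1.21 on WT arrays, with a median of 0.959. In AT5G52660 and AT3G52550 psaf arrays 3 and 4 were the lowest, and in AT3G52550 WT arrays 1 and 2 were also well above the rest at 1.21 and 1.21. Their log2 differences were -1.05 ± 0.23 and -1.05 ± 0.28. AT5G52660 was at -0.59 with the added 5th percentile, and AT3G52550 at -0.63 with neighbouring probes subtracted. AT5G06930 was brighter, at 0.643 to 0.767 on psaf arrays, with a median of 0.728, against 1.64 to 2.24 on WT arrays, with a median of 1.78. It had the widest gap between groups of the 65 members, 0.72 log2, and a difference of -1.02 ± 0.13 log2.

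AT1G05860 was the dimmest member, at 0.0244 to 0.0620 on psaf arrays, with a median of 0.0406, against 0.0907 to 0.115 on WT arrays, with a median of 0.101. Its log2 difference was -0.96 ± 0.18. With the 5th percentile added it was -0.34, above the cut of -0.4. AT3G59980 read 0.102 to 0.358 on psaf arrays, with a median of 0.275, against 0.520 to 0.746 on WT arrays, with a median of 0.603. Its lowest psaf array, array 3, stood far under the others, and the log2 difference was -0.95 ± 0.24. AT5G11550 read 0.202 to 0.330 on psaf arrays, with a median of 0.238, against 0.503 to 0.789 on WT arrays, with a median of 0.597. WT arrays 3 and 4 were the highest for AT5G11550, whose log2 difference was -0.95 ± 0.19.

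The remaining 4 of these 12 genes lay between -0.92 and -0.86 log2. AT1G70350 read 0.0641 to 0.141 on psaf arrays, with a median of 0.113, against 0.233 to 0.298 on WT arrays, with a median of 0.256. AT1G53260 read 0.237 to 0.293 on psaf arrays, with a median of 0.273, against 0.535 to 0.852 on WT arrays, with a median of 0.606. The psaf arrays of AT1G53260 were close together, and the spread was on the WT side, where arrays 3 and 4 were the highest. AT4G17440 read 0.390 to 0.527 on psaf arrays, with a median of 0.454, against 0.834 to 1.33 on WT arrays, with a median of 1.04. AT1G11820 read 0.0632 to 0.169 on psaf arrays, with a median of 0.118, against 0.232 to 0.294 on WT arrays, with a median of 0.262. For AT4G17440 WT arrays 1 and 2 were the highest, and for AT1G11820 the psaf pair means had the largest SD of the 65 members (0.48 log2). The SEs of these 4 differences were 0.18, 0.16, 0.17 and 0.29. With the 5th percentile added, AT1G70350 was at -0.53 and AT1G11820 at -0.50.

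**Figure D3:**
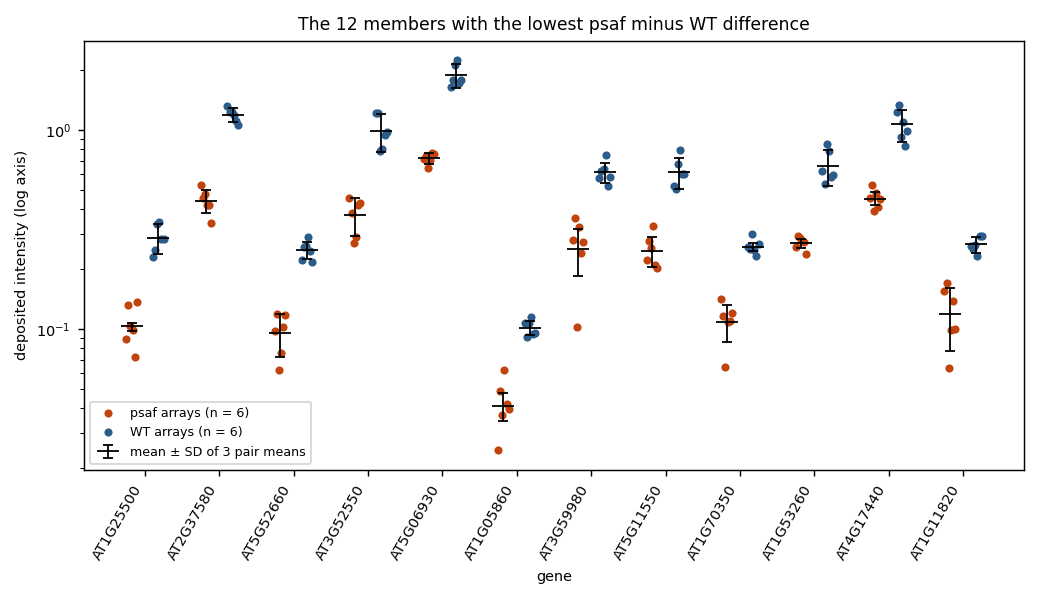
Deposited intensity (log axis) of the 12 members with the lowest psaf minus WT difference, on each psaf array (left, n = 6) and each WT array (right, n = 6). Black bars are the mean ± SD of 3 pair means. The groups are apart in every gene, since the members were chosen so, and the gap is widest in AT5G06930 and AT2G37580.

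The brightest members besides CYN and AT5G06930 were AT1G17744, AT5G40030, AT1G76220 and AT2G26110. AT1G17744 read 0.847 to 1.04 on psaf arrays, with a median of 0.879, against 1.72 to 2.37 on WT arrays, with a median of 2.09. AT5G40030 read 0.778 to 0.966 on psaf arrays, with a median of 0.930, against 1.60 to 2.05 on WT arrays, with a median of 1.84. In both genes the psaf pair means were nearly level, with SDs of 0.05 and 0.06 log2, and the WT pair means varied more. These SDs hide uneven arrays within a pair. Psaf arrays 1 and 2 of AT1G17744 read 0.896 and 1.04, and psaf arrays 3 and 4 of AT5G40030 read 0.778 and 0.956. The log2 differences of AT1G17744 and AT5G40030 were -0.83 ± 0.13 and -0.65 ± 0.10. AT1G76220 read 0.819 to 1.04 on psaf arrays, with a median of 0.884, against 1.48 to 1.96 on WT arrays, with a median of 1.59. AT2G26110 read 0.620 to 0.984 on psaf arrays, with a median of 0.847, against 1.31 to 1.85 on WT arrays, with a median of 1.46. For AT2G26110 psaf arrays 5 and 6 were the lowest and WT arrays 5 and 6 the highest. These 2 genes differed by -0.51 and -0.54, with SEs of 0.10 and 0.16.

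AT5G15390 varied little over the psaf arrays, at 0.595 to 0.688 on psaf arrays, with a median of 0.621, against 1.31 to 1.67 on WT arrays, with a median of 1.44. Its pair means were 0.625 ± 0.0235 in psaf and 1.44 ± 0.118 in WT, its log2 difference was -0.84 ± 0.09, and its gap of 0.61 log2 was the third widest. The narrowest gap belonged to AT1G76050, at 0.121 to 0.215 on psaf arrays, with a median of 0.159, against 0.294 to 0.352 on WT arrays, with a median of 0.323. There the highest psaf array and the lowest WT array were 0.0032 log2 apart on the median-divided scale, although the mean log2 difference was -0.65.

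The members with the widest spread over WT pairs were AT1G67930, AT3G52550 and AT3G27110, with SDs of 0.34, 0.34 and 0.33 log2. AT1G67930 read 0.255 to 0.333 on psaf arrays, with a median of 0.292, against 0.477 to 0.835 on WT arrays, with a median of 0.605. AT3G27110 read 0.138 to 0.191 on psaf arrays, with a median of 0.173, against 0.243 to 0.392 on WT arrays, with a median of 0.267. In AT1G67930 and AT3G27110 WT arrays 3 and 4 were the highest, and without them the AT3G27110 difference was -0.26, against -0.45 with all arrays.

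A further 37 members with an identifier alone were lower by smaller amounts on average. At or below -0.7 log2 were 11 of them: AT2G23160, AT3G01060, AT1G51110, AT4G26770, AT3G51320, AT1G79080, AT2G31920, AT5G19540, AT5G53930, AT2G39670 and AT2G48090. The mean of a gene's 3 pair means ran from 0.0511 to 0.564 in psaf and from 0.115 to 1.32 in WT. AT3G51320 was the dimmest of these genes and AT2G23160 the brightest. Another 11 lay between -0.69 and -0.60: AT4G40080, AT5G48130, AT3G06570, AT4G05490, AT4G18540, AT2G32040, AT5G59400, AT3G59300, AT5G47890, AT1G63610 and AT3G44610. Their means over pair means were 0.200 to 0.648 in psaf and 0.409 to 1.27 in WT. AT2G21720, AT5G34870 and AT4G17650 lay between -0.60 and -0.52, with such means of 0.194 to 0.396 in psaf and 0.354 to 0.732 in WT. The last 12 lay between -0.49 and -0.44: AT1G29700, AT5G02050, AT2G32640, AT5G48110, AT4G34310, AT2G02590, AT5G62550, AT5G22620, AT2G48130, AT5G41960, AT3G12000 and AT3G21810. Their means over pair means were 0.156 to 0.805 in psaf and 0.278 to 1.38 in WT. Without psaf arrays 5 and 6 the AT3G12000 difference was -0.29, against -0.44 with all arrays.

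Genes lay close to the cut of -0.4 on both of its sides. Just inside were GH9B11 at -0.414, AT4G14380 at -0.417, AT5G44150 at -0.428 and AGL54 at -0.439. AT4G14380 read 0.447 to 0.544 on psaf arrays, with a median of 0.470, against 0.707 to 0.923 on WT arrays, with a median of 0.814. AT5G44150 read 0.183 to 0.269 on psaf arrays, with a median of 0.220, against 0.340 to 0.424 on WT arrays, with a median of 0.392. Just outside, with groups that do not overlap, were AT2G46910 at -0.397, AT2G21960 at -0.391, AT4G21820 at -0.389 and AT3G07790 at -0.384. AT2G21960 read 0.244 to 0.328 on psaf arrays, with a median of 0.275, against 0.453 to 0.493 on WT arrays, with a median of 0.467. Each of these 8 genes lay within 1 SE of the cut, with SEs of 0.03 to 0.17 log2. A further 34 candidate genes were at or below -0.4 but had overlapping groups, of which AT5G47030 was the lowest at -0.74. Of the 7 genes set aside by name, Z-ISO (AT1G10830), a carotenoid isomerase, was the lowest at -2.16, and the others, ATATH8, ATAB2, DME, FBL17, TCP15 and SPL, lay between -0.84 and -0.40.

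Members occurred among both dim and bright probes, with means over 12 arrays of 0.0718 to 1.69, beside 0.0190 to 1.91 in the other candidates. Probe intensity was used here as a property of the probe, since intensities of different probes are not comparable as transcript levels. The 604 candidates were split by mean intensity into 4 classes of 151. In the dimmest class, with means of 0.0190 to 0.271, 8.61% met the cuts, and in the next classes 15.2%, 13.2% and 10.6%. These classes held 11, 22, 17 and 15 of the members. The median difference of all candidates was -0.02, -0.08, -0.03 and 0.09 in the same order, so the brightest class as a whole lay slightly above 0. The plot of brightness against difference shows the members in the lower part of a cloud that spreads to both sides. They share that part with overlapping genes and genes set aside by name, of which Z-ISO lies below every member.

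**Figure D4:**
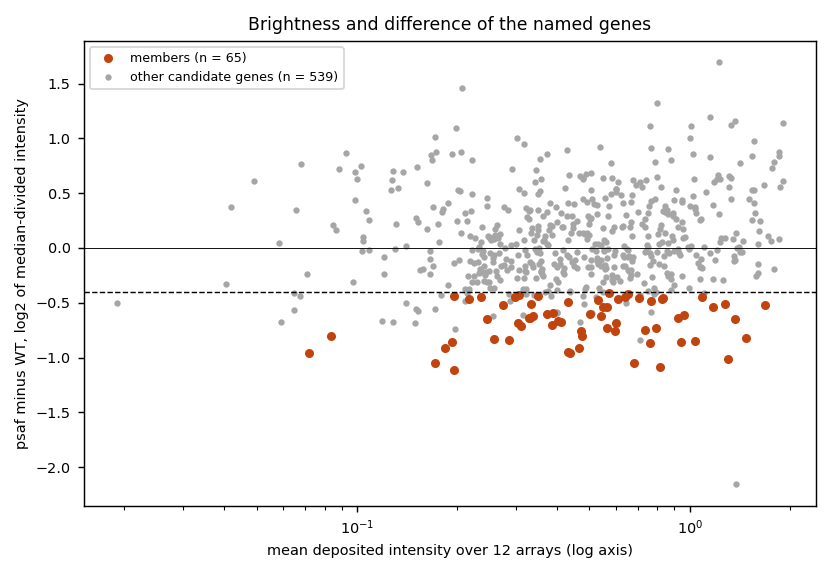
Psaf minus WT difference (log2 of median-divided intensity) against the mean deposited intensity over 12 arrays (log axis) for the 65 members and the other 539 candidate genes. The dashed line is the cut of -0.4. Members lie at or below the dashed line from an intensity of 0.0718 to one of 1.69, and grey points below the line have overlapping groups or were set aside by name.

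Within a genotype, the members did not follow a flat line. WT arrays 5 and 6 were the lowest WT pair for 44 of the 65 members, or 67.7%, beside 49.4% of the other 539 candidates. WT arrays 3 and 4 were the highest WT pair for 38 members, or 58.5%, beside 45.8%. In psaf, arrays 3 and 4 were the lowest pair for 32 members, or 49.2%, beside 30.2%. The median over members of the log2 median-divided intensity was -0.51 to -0.66 on the psaf pairs, and -0.03 to 0.28 on the WT pairs. The lowest WT pair lay 0.48 log2 above the highest psaf pair, and the choice of members requires this order. After each gene's genotype means were subtracted, the median Pearson correlation between 2 members over the 12 arrays was 0.14, beside 0.04 between 2 other candidates. These arrays are the same for all genes and come in close pairs. The members were also chosen on these values for a single direction, while the other candidates lie in both directions. The comparison is therefore a description, carries no test and cannot show a trait particular to the members. The SD over pair means was larger in WT than in psaf for 41 members, or 63.1%, beside 69.4% of the other candidates. Its median was 0.12 log2 in psaf and 0.17 log2 in WT for the members, and 0.14 and 0.21 for the other candidates.

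The candidate genes most like the mean profile of the members over the 12 arrays were FBL17, AT1G15410, AT2G14660, DME and Z-ISO, with Pearson r of 0.956, 0.953, 0.952, 0.949 and 0.948. FBL17, DME and Z-ISO are among the genes set aside by name. AT1G15410 and AT2G14660 had log2 differences of -0.36 and -0.31, above the cut. Most of each r comes from the step between genotypes. Within the 6 WT arrays alone r ran from -0.25 for Z-ISO to 0.68 for AT2G14660, and within the 6 psaf arrays from -0.69 for DME to 0.70 for AT2G14660.

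The members were spread over all 5 nuclear chromosomes. By locus identifier, 13 of 153 candidates on chromosome 1 are members, 14 of 111 on chromosome 2, 11 of 115 on chromosome 3, 9 of 104 on chromosome 4 and 18 of 120 on chromosome 5. The remaining candidate, DAL1, has no locus identifier in the annotation used here. Besides GH9B11 and GH9B12, a single other pair lay within 3 protein-coding genes of each other, AT5G48110 and AT5G48130, whose probes were 3103 numbers apart. The annotated gene length had a median of 2301 bases in the members and 2117 bases in the other candidates with a length. No member had a second probe of its own, so there was no further measure of these genes on the arrays.

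Members were also set beside probes with neighbouring numbers. The sources used here do not describe the array layout, so it is unknown whether such probes lie near each other on the array. The median difference of the 4 nearest probes was between -0.45 and 0.37 for single members, with a median of -0.03, beside 0.03 for the other candidates. It was negative for 35 of 65 members and at or below -0.4 for 3, namely AT1G25500, AT5G62550 and AT3G52550. With the neighbours' median subtracted, all 65 members were still below 0, and 13 were above -0.4. The largest loss was in AT1G25500, whose difference was -0.66 with the subtraction, against -1.11 without it. AT5G62550 was left closest to 0, at -0.02 with the subtraction, against -0.46 without it. IYO stood at -0.25 and AGL54 at -0.37 with the subtraction. Probe numbers of members were next to each other or nearly so in 5 cases: AT3G59300 and AT3G01060, AT5G48110 and AT3G27110, AT3G21810 and AT1G76220, AT4G05490 and AT5G52660, and AT4G14380 and AT1G79080. The subtraction moved 16 members by over 1.5 times. Any part of position on the array in these differences was not tested.

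The scaling of the arrays changed the size of the differences. On the deposited scale, where the median over all 3241 probes was itself -0.29, the members lay between -1.47 and -0.77 with a median of -0.999. Under quantile normalisation their median was -0.68 and under cyclic loess -0.65, with medians over all probes of -0.01 and 0.03. All 65 members stayed below 0 under each of these scalings, and 60 met both cuts under all 4. On the deposited scale every difference is lower by the same amount, so values below 0 and below -0.4 were fixed in advance there. The 5 that did not, all under cyclic loess, were AT2G48130, AT3G21810, AGL54, AT5G44150 and GH9B11, which were at -0.40 to -0.38 there. The groups of AT2G48130, AGL54 and AT5G44150 overlapped under that scaling. With the deposited scale used for the rule, 200 genes would have met it.

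**Figure D5:**
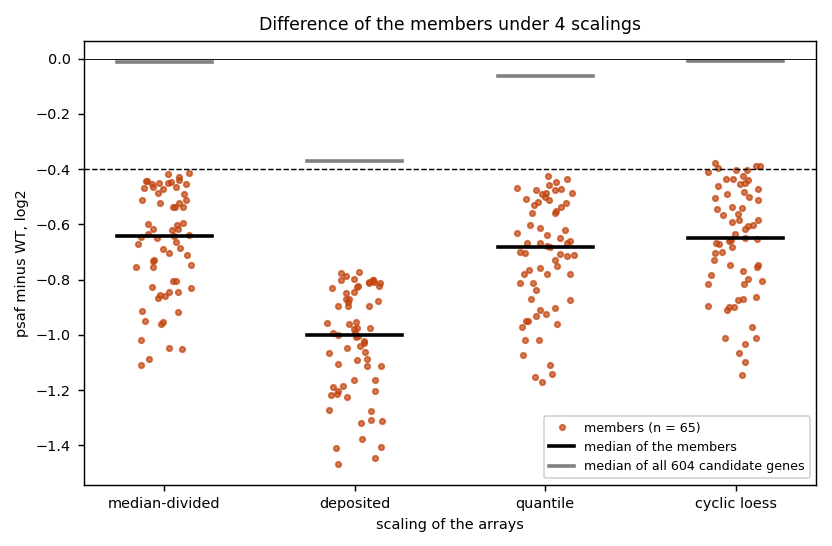
Psaf minus WT log2 difference of each of the 65 members (points, spread sideways at random) under division by the array median, on the deposited scale, under quantile normalisation and under cyclic loess. Black bars are the median of the members, -0.64, -0.999, -0.68 and -0.65, and grey bars that of all 604 candidate genes. The dashed line is the cut of -0.4, which a few members cross under cyclic loess.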

How the data were processed

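Transcript signal was measured on 12 one-channel arrays, 6 of psaf and 6 of WT, grouped by the sample titles. The authors deposited 1 linear intensity per probe and array. From the values, these were already scaled to nearly equal totals; the sources used here do not give the scanning, the background correction, the scaling method, the array layout or the genome build, nor what a value of 0 means. Values of 0 were taken as not measured.

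Each array was divided by its median over probes above 0 on all arrays and log2 was taken. Linear models with genotype alone gave the background counts (limma 3.58.1 under R 4.3.3, two-sided). P-values were adjusted by Benjamini-Hochberg over all probes with at least 4 measured arrays per genotype. The fit was also run on simulated arrays drawn independently, without close pairs, so that run cannot show how the pairs affect the counts. The fit was not applied to single members, because their psaf against WT values chose them. Close pairs were mutual nearest arrays, measured as the scaled median absolute deviation of log2 differences, and pair means are geometric. Members were named from the platform annotation, and all 65 matched the RefSeq table of assembly TAIR10.1, used for symbols, gene length and gene order. Functional classes, planned on gene descriptions, were searched in symbols and synonyms instead, and promoter motifs were not searched, since the annotation used here holds no descriptions or sequences. The members and lists were chosen with earlier results of these data known. Array values are given for the 12 lowest differences, the 6 brightest, those next to the cut, the 3 widest and 3 narrowest gaps and the 3 widest WT spreads, and for every member with a symbol, the last a choice made after seeing the annotation, as was that of the related GH9 genes. A comparison within another gene family is not reported here.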

Additional observations from a re-analysis of the deposited data

Results flagged for a closer look

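In 10 of 130 groups of 6 arrays (65 members, 2 genotypes), the highest or the lowest array lay apart from the others on the median-divided log2 scale by more than 0.625 of the group's range. Chance flags about 1 in 20 groups, and arrays of a close pair are not independent. The members were chosen on these same values, and the requirement that every psaf array lie under every WT array acts on high psaf and low WT values, so neither the number nor the direction of these cases can be read against chance. On psaf arrays the lone value was the lowest in each of 5 members. AT3G59980 read 0.102 on psaf array 3, with 0.241 to 0.358 on the others (gap 0.743 of the range). AT1G70350 read 0.0641 on psaf array 3, with 0.108 to 0.141 on the others (0.704). AT5G40030 read 0.778 on psaf array 3, with 0.903 to 0.966 on the others (0.712). AT5G62550 read 0.521 on psaf array 5, with 0.587 to 0.640 on the others (0.653). AGL54 read 0.0949 on psaf array 4, with 0.148 to 0.160 on the others (0.719).

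On WT arrays there were also 5. AT4G05490 read 0.638 on WT array 3, with 0.50 to 0.544 on the others (0.746). SWAP70 read 0.554 on WT array 3, with 0.479 to 0.523 on the others (0.677). AT5G41960 read 0.944 on WT array 4, with 0.746 to 0.829 on the others (0.678). AT3G21810 read 0.595 on WT array 4, with 0.389 to 0.452 on the others (0.678). CYN read 2.05 on WT array 4, with 2.14 to 2.25 on the others (0.691), and was the one WT case where the lone value was low.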

How the results depend on the processing

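The 65 members were 200 on the deposited scale, and their median difference of -0.64 was -0.999 there and -0.49 with an offset at the 5th percentile of the values, where 46 of 65 members stayed at or below -0.4. The offset moved dim probes most by construction, 9 members by over 1.5 times. The number meeting the rule was 61 to 76 without single arrays and 67 to 88 without a close pair (an alternative added after seeing the data, like the neighbour subtraction), and the median difference was -0.67 to -0.62 and -0.69 to -0.60. No member changed sign under any alternative run. Leaving out or averaging arrays, or adding the offset, could not change a sign, since every psaf array lay under every WT array by choice. The deposited scale could not either, as every difference is lower there by the same amount. The 1658 probes called by limma were 770 with close pairs averaged, 1517 to 1628 without single arrays and 1375 to 1708 without a close pair. The split of higher and lower calls, 943 and 715, was 359 and 1638 on the deposited scale and 725 and 854 under quantile normalisation. With the replicate number as a block, 1775 probes were called. The labels do not say what a shared number means, so shared numbers were not read as pairing. With genotype means subtracted, same-numbered psaf and WT arrays correlated at 0.02 to 0.26, and 4 of 6 such pairs lay above 0.1. Arrays of different numbers were not compared in this way, so an effect shared by arrays of the same number was not tested. Dim probes and 12 arrays in 6 close pairs limit the precision.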
